A study of Rattus norvegicus with 6 samples.

Results

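Aminoacyl-tRNA synthetases were compared between RCS cells, a chondrocyte-like line grown from a rat chondrosarcoma, and rat rib tissue. The members were the genes whose symbol is a one-letter amino acid code followed by ars or ars2, with Eprs, Farsa, Farsb, Fars2 and Tarsl2, and whose description names a tRNA synthetase. This took 35 of the 27217 genes in the table. Of these, 19 encode cytosolic enzymes, 14 encode mitochondrial enzymes and 2 (Gars and Kars) encode the enzymes of both compartments. Another 3 entries matched by symbol only, because the description was missing or named no synthetase, and were kept out of every count. RNA-seq was made from 3 libraries of RCS cells and 3 libraries of rib. The labels name no treatment, genotype, strain or age for either group. The line is a tumour line, and rib is a mixed tissue. The design text calls the replicates biological and names no culture or animal, so the p-values measure only the spread between these libraries.

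An aminoacyl-tRNA synthetase joins an amino acid to the tRNAs that carry its anticodons, at the cost of ATP, and so sets which residue each codon gives. Mammalian cells load cytosolic and mitochondrial tRNAs with largely separate nuclear-encoded enzymes. The mitochondrial set serves the synthesis of the proteins encoded in mitochondrial DNA. Several cytosolic enzymes sit together in the multi-synthetase complex, and many cytosolic synthetase genes are known targets of ATF4, the transcription factor of the amino acid response. Chondrocytes make and secrete large amounts of collagen and proteoglycan core protein, which draws on this supply of charged tRNA.

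Most cytosolic synthetase genes were higher in RCS cells, and the mitochondrial set was mixed. Of the 19 cytosolic genes, 18 were higher, none was lower and 1 (Qars) did not pass the test, with a median difference of 0.82 on the log2 scale, or 1.76-fold. Of the 14 mitochondrial genes, 9 were higher, 1 (Fars2) was lower and 4 did not pass, with a median difference of 0.65. Under other settings, 7 to 12 of these 14 were called higher. Under quantile normalization the mitochondrial median (1.0) lay above the cytosolic median (0.94). Among all 16809 genes tested, 32.9% were called higher and 43.6% lower, and the median difference was -0.15. Higher calls made up 43.0% of all calls, and 50.1% to 61.9% under other scalings of the libraries. A call is a Benjamini-Hochberg adjusted p under 0.05 in limma, adjusted over all genes tested, and every difference is RCS cells minus rib tissue of log2(normalized count + 1). A normalized count is a number of reads after division by a factor common to all genes of its library. It is not divided by gene length, so levels are compared here between libraries and not between genes. Every member was listed above 0 in all 6 libraries and all 35 passed the filter on low values, so no count below leaves a member out.

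The promoters of the synthetase genes show a feature that the choice of members did not use. RefSeq promoter windows of 300 bases, from 250 before to 50 after the annotated start in the GRCr8 assembly, were at hand for 31 members. The ATF element TGATGCAA, a composite site for ATF4 and C/EBP proteins, was found on either strand in 7 of 18 windows of cytosolic and dual genes (38.9%). It was found in 0 of 13 mitochondrial windows, in 0.795% of all 33469 promoter windows and in 0.591% of the windows of tested genes. The 7 genes are Mars, Cars, Nars, Tars, Yars, Iars and Aars. The motifs were chosen after the expression values were known. The following windows of 4 of these genes show where the element lies, written 5′ to 3′ on the strand of the gene, with the element or its reverse complement in capitals.

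Mars, GRCr8 chr7:65023743-65023790, minus strand: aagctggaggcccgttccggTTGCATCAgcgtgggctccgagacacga

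Tars, GRCr8 chr2:62114802-62114849, minus strand: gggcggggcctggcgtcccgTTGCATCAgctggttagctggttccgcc

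Iars, GRCr8 chr17:15193649-15193696, minus strand: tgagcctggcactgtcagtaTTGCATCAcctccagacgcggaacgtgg

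Aars, GRCr8 chr19:55908350-55908397, plus strand: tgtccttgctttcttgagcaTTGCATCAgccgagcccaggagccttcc

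In these 4 windows the element is written as its reverse complement, TTGCATCA, on the gene's strand. Counted from 0 at the annotated start, it lies at positions -17 to -10 in Mars, -27 to -20 in Tars, -24 to -17 in Iars and -112 to -105 in Aars. In Nars it lies at -14 to -7 in the TGATGCAA orientation. In Cars (17 to 24) and Yars (38 to 45) it lies after the start. With the sixth base left free (TGATGNAA), the same 7 members matched, against 3.98% of all windows.

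All 7 genes with the element were called higher, with a median difference of 0.85, and 9 of the 11 cytosolic and dual genes without it were called higher, with a median of 0.67. Of 60 other tested genes with the element in their window, 20 (33.3%) were called higher, against 35.1% of the 11088 without it, and both medians were -0.07. The E-box CACGTG is a site of MYC and other basic helix-loop-helix proteins and reads the same on both strands. It was in 5 of 18 cytosolic and dual windows (Farsb, Tars, Vars, Iars and Aars) and in 0 of 13 mitochondrial windows. Its share was 6.42% of all windows and 8.53% of the windows of tested genes. The sequence CCAAT, the box bound by NF-Y, was on either strand in 10 of 18 cytosolic and dual windows and in 4 of 13 mitochondrial windows. Its share was 37.5% of all windows and 36.5% of the windows of tested genes. Among cytosolic and dual members the median difference was 0.67 in the 5 with the E-box and 0.78 in the 13 without it. For CCAAT it was 0.84 in the 10 with it and 0.61 in the 8 without it. Of the other tested genes, 42.7% with the E-box were called higher against 34.3% without it, and 37.9% with CCAAT against 33.4% without it. None of the 3 motifs contains another. A match is a run of letters, and no binding was measured here.

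**Figure D1:**
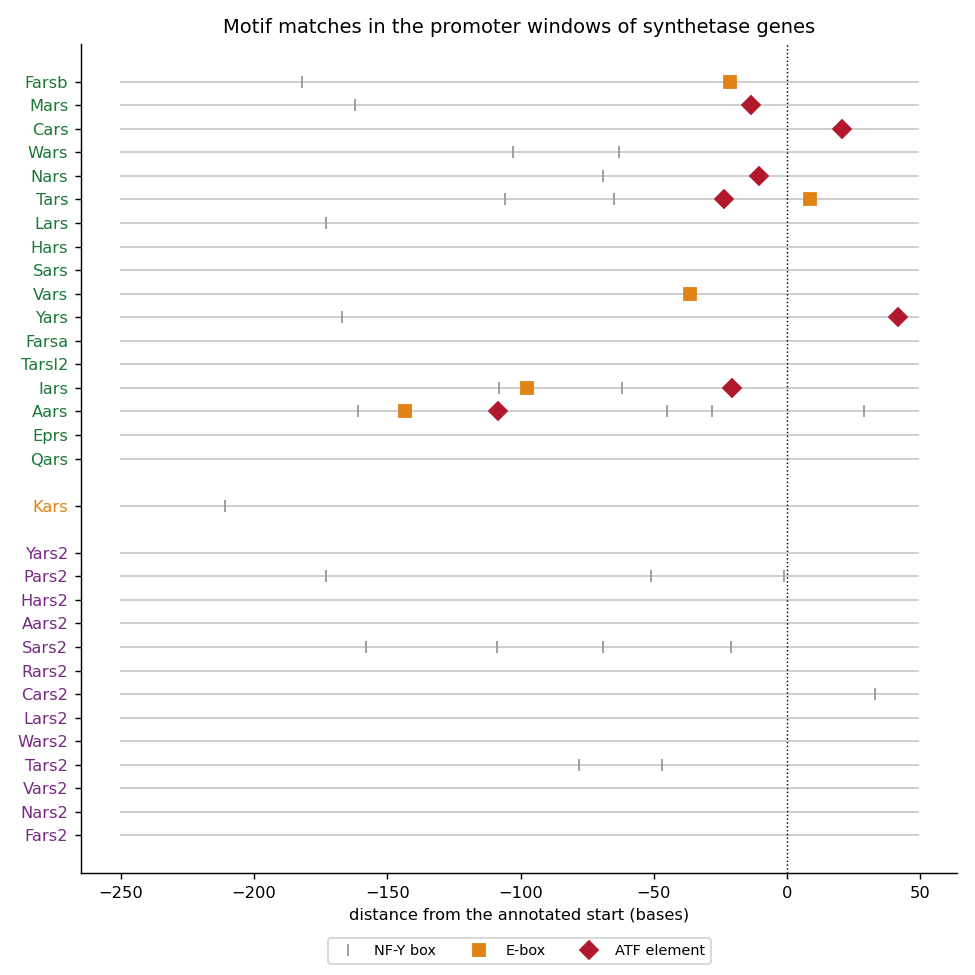
Position of 3 motifs in the promoter windows of 31 synthetase genes, in bases from the annotated start (dotted line), with green names for cytosolic, orange for dual and purple for mitochondrial genes. The ATF element appears in 7 cytosolic windows and in 0 of 13 mitochondrial windows.

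The largest difference among the cytosolic enzymes was in Farsb (ENSRNOG00000014119), the beta subunit of phenylalanyl-tRNA synthetase. Its normalized counts were 882, 837 and 795 in RCS replicates 1 to 3, against 301, 309 and 333 in rib replicates 1 to 3. The lowest RCS library was above the highest rib library, and the difference was 1.41 (SE 0.08, 95% confidence interval 1.23 to 1.59, adjusted p = 1.17e-06) by limma, or 2.66-fold. Farsa, the catalytic alpha subunit of the same tetramer, had normalized counts of 468, 441 and 458 in RCS cells against 331, 292 and 314 in rib. Its groups did not overlap either, with a difference of 0.55 (SE 0.08, adjusted p = 0.000327) by limma. The subunits of this enzyme differed in size of change, 2.66-fold for Farsb and 1.46-fold for Farsa, and their 95% intervals (1.23 to 1.59 and 0.36 to 0.73) did not meet.

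Cars, Wars and Nars followed among the cytosolic enzymes outside the multi-synthetase complex. Cars, which charges cysteine tRNA, had normalized counts of 948, 858 and 784 in RCS replicates 1 to 3, against 433, 389 and 468 in rib replicates 1 to 3, a difference of 1.0 (SE 0.10, adjusted p = 3.51e-05) in limma. Wars, the tryptophanyl enzyme and an interferon-responsive gene, had 690.0, 633 and 666 in RCS cells against 325, 324 and 372 in rib, a difference of 0.96 (SE 0.09, adjusted p = 1.58e-05) in limma. Nars, the asparaginyl enzyme, had 1159.5, 1078 and 1046 in RCS cells against 579, 564 and 637 in rib, a difference of 0.88 (SE 0.08, adjusted p = 1.96e-05) in limma. In each of these genes every RCS library was above every rib library.

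The 12 cytosolic genes outside the complex were all called higher, against 32.9% of all genes tested, with a median difference of 0.80. The remaining ones, with limma adjusted p between 1.61e-05 and 0.00751, were the threonyl enzyme Tars (0.85), the histidyl enzyme Hars (0.82), the seryl enzyme Sars (0.78), the valyl enzyme Vars (0.67), the tyrosyl enzyme Yars (0.64), the second cytosolic threonyl enzyme Tarsl2 (0.52) and the alanyl enzyme Aars (0.41). Tarsl2 had 108, 109.7 and 120.0 in RCS cells against 81.5, 77.8 and 75.3 in rib, and its groups did not overlap. Aars had 1245, 1132 and 966 in RCS cells against 845, 779 and 881 in rib, so that its lowest RCS library and highest rib library lay close together.

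**Figure D2:**
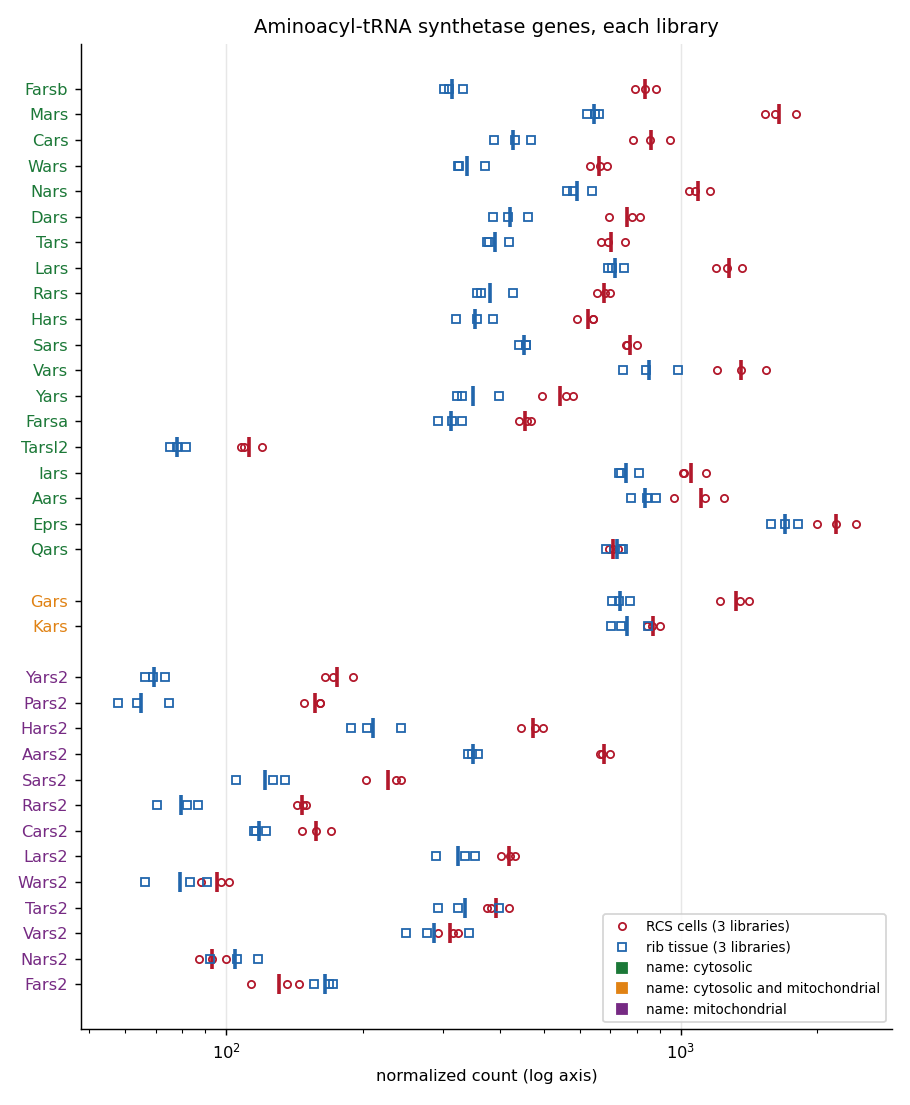
Normalized count (log axis) of each of 34 synthetase genes in each of 3 RCS (red circles) and 3 rib (blue squares) libraries, with an upright bar at the geometric mean of each group. In 27 genes all red circles lie to the right of all blue squares, and in Fars2 they lie to the left.

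The 8 complex-bound enzymes of the multi-synthetase complex did not move alike. Of these genes, 6 were called higher, against 32.9% of all genes tested, and 2 (Qars and Kars) did not pass, with a median difference of 0.65. Mars (ENSRNOG00000025459), the methionyl enzyme that loads both initiator and elongator tRNA, had the largest difference of the 8. Its normalized counts were 1798, 1612 and 1533 in RCS replicates 1 to 3, against 649, 624 and 662 in rib replicates 1 to 3. All RCS libraries lay far above all rib libraries, a difference of 1.35 (SE 0.08, 95% confidence interval 1.16 to 1.54, adjusted p = 1.95e-06) in limma, or 2.55-fold.

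Dars, the aspartyl enzyme, had normalized counts of 813, 782 and 695 in RCS cells against 386, 418 and 462 in rib, and limma gave 0.85 (SE 0.10, adjusted p = 6.98e-05). Lars, the leucyl enzyme that also serves as a leucine sensor for mTORC1, had 1366, 1265 and 1199 in RCS cells against 691, 753 and 708 in rib, and limma gave 0.83 (SE 0.08, adjusted p = 2.57e-05). Rars, the arginyl enzyme, had 700.0, 655 and 682 in RCS cells against 357, 429 and 364 in rib, and limma gave 0.83 (SE 0.09, adjusted p = 5.63e-05). The groups of these genes stood apart in every library, with nearly equal differences.

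Smaller differences were measured for Iars and Eprs. Iars, the isoleucyl enzyme, had normalized counts of 1139, 1019 and 1013 in RCS cells against 732, 739 and 809 in rib, a difference of 0.47 (SE 0.08, adjusted p = 0.000862) by limma. Eprs, which joins the glutamyl and prolyl enzymes in 1 chain, had 2426, 2197 and 1998 in RCS cells against 1696, 1585 and 1815 in rib, a difference of 0.38 (SE 0.10, adjusted p = 0.00817) by limma, or 1.30-fold. In both genes all RCS libraries were above all rib libraries, by a narrow margin in Eprs.

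Qars (ENSRNOG00000043447), the glutaminyl enzyme, is the cytosolic gene that did not pass. Its normalized counts were 727, 710.5 and 695 in RCS replicates 1 to 3, against 739, 687 and 746 in rib replicates 1 to 3. The groups overlapped, and the difference was -0.03 (SE 0.07, 95% confidence interval -0.19 to 0.14, adjusted p = 0.754) in limma. Its sign depended on the scaling: it was 0.27 and called higher when libraries were scaled to the same median, and 0.31 and called higher when they were scaled to the same total.

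The dual genes differed from each other. Gars, whose glycyl enzyme serves cytosol and mitochondria from alternative start codons, had normalized counts of 1417, 1349 and 1219 in RCS cells against 707, 731 and 773 in rib, a difference of 0.85 (SE 0.08, adjusted p = 2.94e-05) by limma. Kars, the lysyl enzyme of the complex, whose mitochondrial form comes from alternative splicing, had 900.0, 864 and 845 in RCS cells against 846, 740.0 and 702 in rib. The lowest RCS library of Kars lay just under its highest rib library, and its difference of 0.19 (SE 0.09, 95% confidence interval -0.01 to 0.40, adjusted p = 0.0766) by limma did not pass. Kars was called higher without rib tissue replicate 1, its highest rib library, and under median, quantile and total scaling and array weights. Counts per gene do not separate the forms of either enzyme.

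Among the mitochondrial genes, Yars2, Pars2 and Hars2 were more than 2-fold higher in RCS cells. Yars2 (ENSRNOG00000025252), the mitochondrial tyrosyl enzyme, had normalized counts of 165, 172 and 190.2 in RCS replicates 1 to 3, against 66.4, 73.4 and 69.0 in rib replicates 1 to 3. All RCS libraries lay far above all rib libraries, a difference of 1.32 (SE 0.12, 95% confidence interval 1.05 to 1.59, adjusted p = 1.56e-05) in limma, or 2.50-fold. Pars2, the mitochondrial prolyl enzyme, had 148, 161 and 161 in RCS cells against 74.8, 63.8 and 57.8 in rib, a difference of 1.26 (SE 0.14, adjusted p = 5.05e-05) in limma. Its groups also lay wide apart.

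Hars2, the mitochondrial histidyl enzyme, had normalized counts of 445, 479 and 498 in RCS cells against 189, 242 and 204 in rib, a difference of 1.17 (SE 0.11, adjusted p = 2.14e-05) in limma. Aars2, the mitochondrial alanyl enzyme, had 701, 664 and 672 in RCS cells against 340.2, 348 and 358 in rib, a difference of 0.96 (SE 0.07, adjusted p = 5.2e-06) in limma. Every RCS library was above every rib library in both. The seryl enzyme Sars2 (0.89), the arginyl enzyme Rars2 (0.88), the cysteinyl enzyme Cars2 (0.42) and the leucyl enzyme Lars2 (0.37) were also called higher, with limma adjusted p of 0.000293, 0.000246, 0.0071 and 0.00714. The calls of Cars2 and Lars2 were lost under cyclic loess normalization, where both differences were 0.20.

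Fars2 (ENSRNOG00000016135), the single-chain mitochondrial phenylalanyl enzyme, was the gene called lower. Its normalized counts were 145, 114 and 137 in RCS replicates 1 to 3, against 168, 172 and 156 in rib replicates 1 to 3. All RCS libraries were below all rib libraries, and the difference was -0.33 (SE 0.12, 95% confidence interval -0.61 to -0.05, adjusted p = 0.0362) in limma. That call ended when RCS cells replicate 2 or 3, or rib tissue replicate 1 or 2, was left out, and under median scaling and quantile normalization. Scaled to the same total, the difference was 0.01.

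The other 4 mitochondrial genes did not pass, and their groups overlapped. The tryptophanyl Wars2 had normalized counts of 87.9, 97.7 and 102 in RCS cells against 90.6, 83.1 and 66.3 in rib. Its difference of 0.27 (SE 0.16, 95% confidence interval -0.10 to 0.63, adjusted p = 0.154) by limma passed under median, quantile and total scaling. The threonyl Tars2 had 419.9, 376 and 383 in RCS cells against 398, 324 and 293 in rib, a difference of 0.22 (95% confidence interval -0.05 to 0.50). The valyl Vars2 had 324, 317 and 292 in RCS cells against 343, 276 and 249 in rib, a difference of 0.11 (95% confidence interval -0.17 to 0.40). Both were called higher when rib tissue replicate 1, the highest rib library in both, was left out, and under median and total scaling. The asparaginyl Nars2 had 87.2, 100.1 and 93.0 in RCS cells against 106, 118 and 92.4 in rib, a difference of -0.17 (SE 0.14, 95% confidence interval -0.48 to 0.15, adjusted p = 0.298) by limma, and its sign turned under median, quantile and total scaling.

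**Figure D3:**
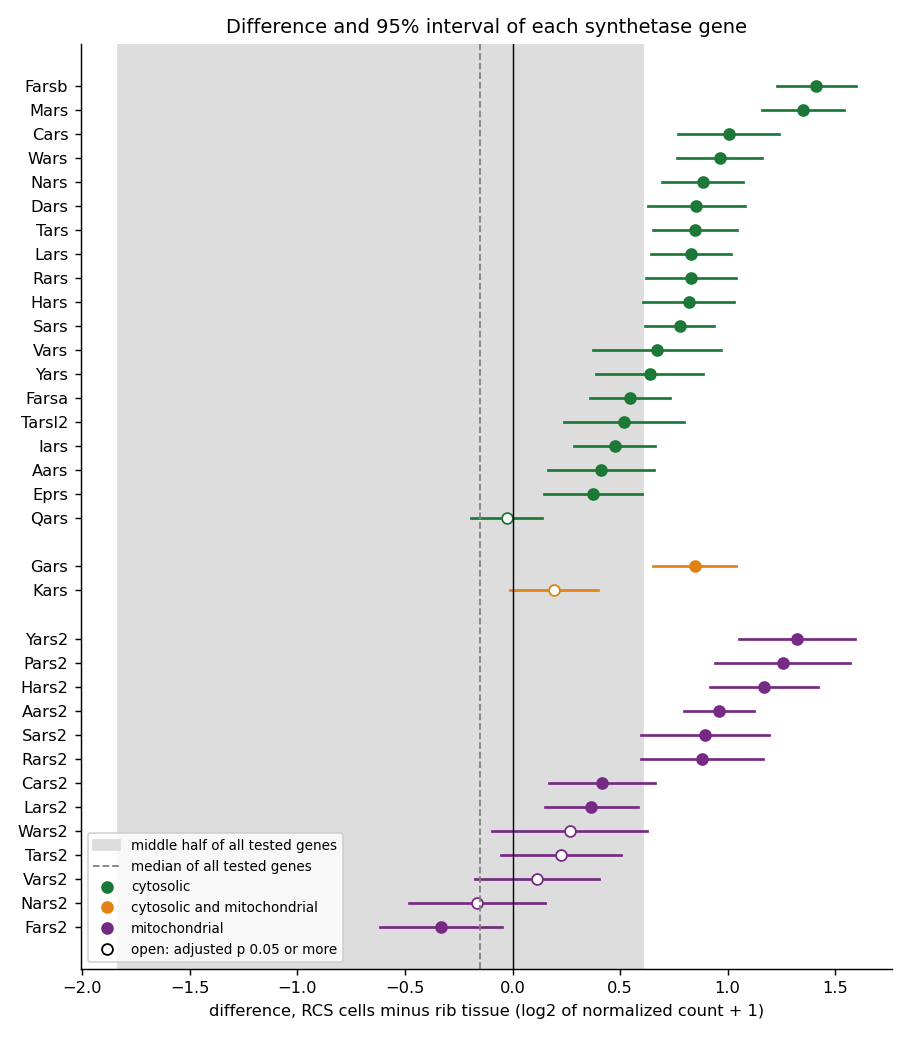
Difference of each synthetase gene (RCS cells minus rib tissue, log2 of normalized count + 1) with its 95% confidence interval, open where the adjusted p was 0.05 or more, over the interquartile range of all tested genes (grey) and their median of -0.15 (dashed). Filled points lie right of 0 for 27 of the 34 genes shown and left of 0 for Fars2, whose sign turned when libraries were scaled to the same total.

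Over all 35 members, 28 were called higher (80.0%), 1 lower and 6 neither, from 26 higher under cyclic loess to 33 under median and total scaling. The same number, 28, had all 3 RCS libraries above all 3 rib libraries, against 34.4% of the genes tested. At least 2-fold higher and called were 7 of the 35 members, with Farsb, Mars, Yars2, Pars2, Hars2 and Cars among them. Of the 7, 4 are mitochondrial (28.6% of that set) and 3 cytosolic (15.8% of that set), against 14.1% of genes tested. As deposited, the cytosolic share of such changes was thus close to that of all genes. The median cytosolic difference was 1.11 under median scaling and 1.16 under total scaling, so this share depends on the scaling. The share of all genes at least 2-fold higher under those scalings was not counted. By structural class of the catalytic domain, 12 of 15 class I and 15 of 19 class II genes were called higher, with Eprs holding both domains. The 35 genes took 0.556%, 0.531% and 0.529% of all normalized counts in RCS replicates 1 to 3, against 0.262%, 0.261% and 0.267% in rib replicates 1 to 3. The total of all normalized counts was 4249660 to 4525340 in RCS and 5456460 to 5679280 in rib libraries. Part of the difference in share thus lies in that total. In these bulk libraries a change in RNA per cell and a change in the share of cells that hold the RNA cannot be told apart.

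Among the members, 13 amino acids have a separate cytosolic and mitochondrial enzyme gene, which gives 14 ratios, since the cytosolic phenylalanyl enzyme has the Farsa and Farsb subunits. Pairs with the symbol-only entries Iars2 and Mars2, and of the joint enzyme Eprs with Pars2, were not formed. Apart from the 1 added before the log2, a ratio within a library does not depend on that library's scaling factor. Gene length does not cancel in it, so only its change between groups is read. In 8 ratios every RCS library was above every rib library, in 3 every RCS library was below, and in 3 the groups overlapped, with a median change of 0.51 (log2). The share of other gene pairs whose ratios separate the groups was not counted. Among all genes tested, 32.9% were called higher and 43.6% lower, so these counts are not read as particular to the synthetases. With 3 against 3 libraries the two-sided exact permutation test cannot go below p = 0.1, which 11 ratios reached, and the Benjamini-Hochberg value over the 14 ratios was 0.127 at the smallest.

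Farsb over Fars2 changed most. Its log2 ratio was 2.60, 2.87 and 2.53 in RCS cells against 0.84, 0.84 and 1.09 in rib, a change of 1.74 (exact permutation p = 0.1). Nars over Nars2 had log2 ratios of 3.72, 3.42 and 3.48 in RCS cells against 2.44, 2.25 and 2.77 in rib, a change of 1.05 (exact permutation p = 0.1). The ratios for phenylalanine through Farsa (0.88), tryptophan (0.70), threonine (0.62), cysteine (0.59), valine (0.56) and leucine (0.46) lay the same way, towards the cytosolic gene in RCS cells.

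Tyrosine and alanine were among those that went the other way. The log2 ratio of Yars over Yars2 was 1.81, 1.70 and 1.38 in RCS cells against 2.57, 2.12 and 2.25 in rib, a change of -0.68 (exact permutation p = 0.1). Aars over Aars2 had 0.83, 0.77 and 0.52 in RCS cells against 1.31, 1.16 and 1.30 in rib, a change of -0.55 (exact permutation p = 0.1). For these amino acids both genes were higher in RCS cells, and the mitochondrial gene by more.

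The ratios for histidine (-0.35), serine (-0.12) and arginine (-0.05) overlapped between the groups, with exact permutation p of 0.3, 0.5 and 0.7. Hars and Hars2 lie head to head, and their RefSeq promoter windows share 243 bases on opposite strands. Both were called higher, by 0.82 and 1.17. The windows of Kars and Rars2 likewise overlap those of a divergent neighbour, Terf2ip (difference -0.13) and Orc3 (difference 0.00), and neither neighbour passed the test. Windows of Cars, Vars and Fars2 also overlap those of a neighbour (LOC134483952, LOC108349032 and Lyrm4), for which no expression values were read.

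**Figure D4:**
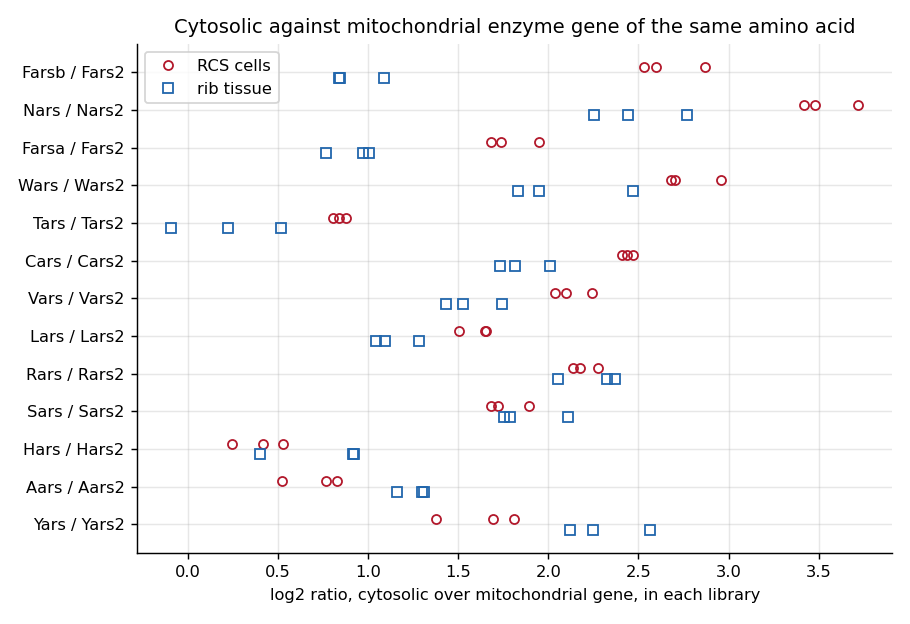
Log2 ratio of the cytosolic to the mitochondrial synthetase gene in each RCS (red circles) and rib (blue squares) library for 13 pairs. The red circles lie right of the blue squares in 8 pairs and left of them in 2 (Aars and Yars).

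The partners of the synthetases were read from 8 gene lists. The counts of each list stand against 32.9% called higher and 43.6% called lower among all 16809 genes tested. Of the 3 scaffold proteins of the multi-synthetase complex, 3 were called higher by limma. Eef1e1, which is AIMP3, differed by 1.27 (SE 0.09, adjusted p = 5.8e-06), Aimp1 by 0.95 (SE 0.12, adjusted p = 0.000107) and Aimp2 by 0.68 (SE 0.09, adjusted p = 0.000203). Eef1e1 had normalized counts of 402, 401 and 375 in RCS cells against 150.1, 159.9 and 178 in rib, so its groups lay well apart, as did those of the other two scaffolds.

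Among 12 tested genes of aminoacylation accessory and proofreading functions, 7 were called higher, 1 lower and 4 neither, with a median difference of 0.43. Aarsd1, which removes serine misloaded on alanine tRNA, had normalized counts of 597, 573 and 611 in RCS cells against 237, 222 and 232 in rib, a difference of 1.36 (SE 0.07, adjusted p = 1.02e-06) by limma. Dtd1, a deacylase that clears D-amino acids from tRNA, differed by 1.12 (SE 0.10, adjusted p = 1.61e-05) by limma. The gene called lower was Prorsd1, a relative of the prolyl editing domain, at -0.54 (SE 0.14, adjusted p = 0.00839) by limma, and its call was lost under median scaling (-0.25) and total scaling (-0.20).

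Of 25 tRNA maturation genes, 21 were called higher, 0 lower and 4 neither, with a median of 1.0. Pop1, a protein subunit of the RNase P and RNase MRP enzymes, had normalized counts of 741, 733 and 674 in RCS cells against 106, 112 and 151 in rib, a difference of 2.55 (SE 0.14, adjusted p = 9.13e-07) by limma, or 5.84-fold. Trmt61a, the catalytic subunit of a tRNA adenosine methyltransferase, had 602, 536 and 524 in RCS cells against 152, 117 and 156 in rib, a difference of 1.97 (SE 0.13, adjusted p = 2.47e-06) by limma. All RCS libraries were far above all rib libraries in both.

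RNA polymerase III, which transcribes tRNA genes, was covered by 21 genes, of which 13 were called higher, 1 lower and 7 neither, with a median of 0.53. Its alternative subunits Polr3g and Polr3gl stood on opposite sides. Polr3g, the form typical of stem and tumour cells, had normalized counts of 185, 188 and 178 in RCS cells against 52.3, 45.6 and 72.6 in rib, a difference of 1.70 (SE 0.18, adjusted p = 4.05e-05) by limma. Polr3gl had 23.7, 23.2 and 27.7 in RCS cells against 56.3, 47.3 and 58.5 in rib, a difference of -1.09 (SE 0.19, adjusted p = 0.000899) by limma, which turned to 0.34 under quantile normalization (adjusted p = 0.236). Polr3k, a small subunit of the enzyme, differed by 1.65 (SE 0.15, adjusted p = 1.58e-05) by limma.

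Of 9 cytosolic elongation factor genes, 6 were called higher, 2 lower and 1 neither, with a median of 0.38. The lower ones were Eef1a2, the muscle and neuron form of the factor that takes charged tRNA to the ribosome, and Eef2k, the kinase that inhibits elongation factor 2. Eef1a2 was listed at 1.09, 0 and 0 normalized counts in RCS replicates 1 to 3 and at 829, 773 and 422 in rib replicates 1 to 3 (limma adjusted p = 2.74e-07). Eef2k differed by -1.74 (SE 0.19, adjusted p = 4.66e-05) by limma.

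Mitochondrial translation factors (9 genes) were called higher in 7 cases and neither in 2, with a median of 0.60, led by Tsfm (0.82) and Mtif3 (0.81). Of 12 genes of mitochondrial DNA expression, 10 were called higher, 1 lower and 1 neither, with a median of 0.47. Polrmt, the mitochondrial RNA polymerase, had normalized counts of 683, 697 and 617 in RCS cells against 314, 171 and 165 in rib, a difference of 1.68 (SE 0.23, adjusted p = 0.000196) by limma. Ppargc1a, the coactivator of mitochondrial biogenesis that is abundant in muscle, was the lower one, at 2.18, 0 and 2.83 in RCS cells against 108, 129 and 49.3 in rib (limma adjusted p = 5.03e-05).

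Of 23 factors and targets of the amino acid response, 17 were called higher, 1 lower and 5 neither, with a median of 1.06. Slc7a11, the cystine transporter, had normalized counts of 321, 250.2 and 271 in RCS cells against 14, 19.5 and 6.48 in rib, a difference of 4.41 (SE 0.34, adjusted p = 7.21e-06) by limma. Trib3, a pseudokinase induced by ATF4, had 61.3, 48.5 and 53.7 in RCS cells against 6.82, 10.8 and 3.42 in rib, a difference of 2.90 (SE 0.36, adjusted p = 0.000125) by limma. The RCS libraries lay far above the rib libraries in both.

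Atf4, Asns and Eif2ak3 were named after their values were seen, as were Aimp2, Prorsd1 and Polr3gl above. Atf4 itself, whose activity is controlled mainly at translation, had 996, 941 and 907 in RCS cells against 681, 649 and 723 in rib, a difference of 0.47 (SE 0.08, adjusted p = 0.00064) by limma. Asns, which makes asparagine for the Nars reaction, had 467, 418 and 451 in RCS cells against 182, 155 and 153 in rib, a difference of 1.44 (SE 0.10, adjusted p = 3.68e-06) by limma. The lower gene was Eif2ak3, the PERK kinase of the endoplasmic reticulum, at -0.33 (SE 0.12, adjusted p = 0.0328) by limma. Its call was lost under median, quantile and total scaling and when any RCS library was left out, and its difference was 0.01 under total scaling.

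**Figure D5:**
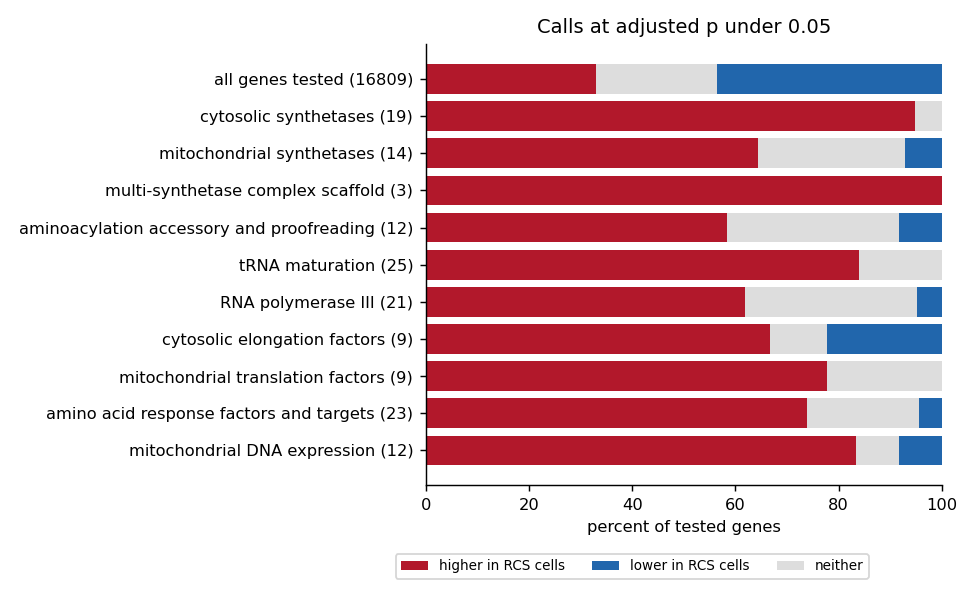
Percent of tested genes called higher (red), lower (blue) or neither (grey) in RCS cells for all genes, the cytosolic and mitochondrial synthetases and 8 lists of partner genes, with the number tested in brackets. The red part is 32.9% for all genes, 94.7% for cytosolic and 64.3% for mitochondrial synthetases.

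Most lists of cell markers also differed between the groups. Of 8 cartilage markers, 2 were called higher (Matn1, 1.70, and Comp, 0.49), 2 lower (Col2a1, -2.62, and Col11a1, -1.07) and 4 neither. Their mean log2 level was 12.38 to 12.79 in RCS and 12.57 to 13.13 in rib libraries, so both labels carry cartilage genes. Their summed normalized counts were lower in RCS cells, at 57049 to 77781 against 104277 to 171236 in rib. All 9 tested skeletal muscle markers were called lower, with summed normalized counts of 126 to 161 in RCS and 20820 to 36694 in rib libraries and with Myod1 and Myog at 0 in every RCS library. All 8 fibroblast markers (summed normalized counts 143 to 168 in RCS and 48663 to 91043 in rib), 6 myeloid markers (26.9 to 39.3 and 1023 to 1941) and 6 endothelial markers (5.49 to 21.0 and 2247 to 3610) were called lower. So were 4 of 5 erythroid markers (all but Klf1) and 5 of 6 adipocyte markers (all but Pparg). Sums over these 2 lists include the marker that did not pass. They were 2.78 to 7.85 in RCS and 393 to 1594 in rib for the erythroid list. For the adipocyte list they were 166 to 195 in RCS and 1493 to 3029.5 in rib. Most of the RCS sums came from Klf1 (2.78, 6.43 and 4.51 in RCS replicates 1 to 3) and Pparg (147, 150 and 177). All 10 cell cycle markers were called higher, at a mean log2 of 9.78 to 9.89 in RCS and 8.27 to 8.57 in rib libraries. The part of other cell types and of cell division in the synthetase differences was not tested. Estimated depth was 5319370 to 8524910 reads on genes per library, and the lowest member value, that of Pars2 in rib tissue replicate 3, stood for about 57.8 reads.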

How the data were processed

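The authors deposited log2 values of 27217 rat genes in 6 libraries. From the values, these are log2 of reads after division by a factor common to each library, with 1 or less listed as 0. They carry no division by gene length although the table's name gives such a unit. Per the submitters' processing notes, CASAVA 1.8, DESeq and the build rn5 are named with no role given. For the aligner, counting rule and use of strand, nothing is given in the sources used here. Among the lowest values (10 reads or fewer), 38.6% to 54.7% came within 0.01 of a whole read, so reads were not recovered and no count model was used. Depth was estimated from the step of 1 read, and intervals of differences come from the spread between libraries.

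The test was limma 3.58.1 (R 4.3.3, empirical Bayes with a trend, two-sided) on log2(normalized count + 1) of 16809 genes with at least 1 in at least 3 of 6 libraries. Fold changes on this scale understate changes of low genes. The fit was checked on simulated data. Replicate numbers come from the titles. No library pair was identical (0 pairs). Of 176 names in 16 lists, 166 matched by symbol, 6 by Entrez identifier and 4 not at all. Named genes were the 5 called members with the largest differences in each direction and compartment, all complex members, and the 2 called genes per partner list with the largest absolute difference and a mean of at least 10 in 1 group. Aimp2, Prorsd1, Polr3gl, Atf4, Asns and Eif2ak3 were added after their values were seen. The members and lists were chosen with earlier results of these data known, 1 member is counted but not reported here by name, and the description requirement left out Iars2 and 2 Mars2 entries. Sequences are from RefSeq (GRCr8), matched by Entrez identifier, and no coordinates were converted. Alternatives were quantile normalization, median scaling, cyclic loess, a pseudocount of 0.1, no filter, a filter of 10, array weights, a replicate block and leaving out each library. Scaling to the same total was added after seeing the data.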

Additional observations from a re-analysis of the deposited data

How the results depend on the processing

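Over 15 alternatives, the count of cytosolic genes called higher stayed between 18 and 19, the count over all 35 members between 26 and 33, and the mitochondrial count between 7 and 12. The count of members called lower (Fars2, mitochondrial) was 0 under median scaling, quantile normalization and total scaling, and 0 to 1 with 1 library left out. The median difference of cytosolic members, 0.82 as deposited, was 0.72 under cyclic loess, 1.11 under median scaling, 0.94 under quantile normalization and 1.16 under total scaling. That of mitochondrial members, 0.65 as deposited, was 0.43 under cyclic loess, 1.0 under quantile normalization, 0.94 under median scaling and 0.99 under total scaling. Cytosolic minus mitochondrial, 0.17 as deposited, was -0.0615 under quantile normalization, so the order of the medians depends on that choice. These scalings moved the median of all genes by 0.47 (quantile), 0.29 (median), 0.18 (loess) and 0.33 (total), and higher calls made up 61.9%, 53.5%, 50.1% and 54.6% of all calls against 43.0% as deposited.

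Signs turned for Nars2 (0.13 under median, 0.34 under quantile and 0.17 under total scaling), Qars (0.0031 under array weights, 0.27 under median, 0.10 under quantile and 0.31 under total scaling), Fars2 (0.0073 under total scaling) and Vars2 (-0.083 under cyclic loess). They also turned for the ratios of Rars to Rars2 (-0.149 to 0.0078 with 1 library left out, the highest without rib tissue replicate 2) and Sars to Sars2 (0.0056 under array weights and 0.038 under cyclic loess). The cause was not tested. Among the member results under alternatives, 494 kept their direction and call, 14 passed newly, 8 no longer passed and 9 turned sign. Among the ratio results, 197 stayed within the spread between libraries, 10 moved further and 3 turned sign. With the replicate block, 28 members were called higher and 1 lower, as without it, and 5536 and 7340 genes against 5536 and 7324. The replicate numbers gave no sign of pairing (correlations of the deviations of same-numbered libraries 0.11, -0.15 and 0.053 over 11249 genes), and not every library correlated best with its own number. Deviations from means of 3 libraries cannot show that pairing is absent. With 3 libraries a group, precision is limited by the spread between them.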

Other observations

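Of the 3 entries that matched by symbol only, 2 were expressed and called higher in RCS cells. The mitochondrial isoleucyl gene Iars2 had normalized counts of 308, 309 and 299 in RCS replicates 1 to 3, against 188, 169.7 and 174 in rib replicates 1 to 3, a difference of 0.79 (SE 0.08, adjusted p = 5.02e-05) by limma. The mitochondrial methionyl gene Mars2 had 71.0, 77.2 and 75.4 in RCS cells against 34.9, 27.9 and 24.4 in rib, a difference of 1.34 (SE 0.19, adjusted p = 0.000237) by limma. Every RCS library was above every rib library in both. A second entry named Mars2 was listed at 0 in all 6 libraries.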
